A study of Mus musculus with 45 samples.

Results

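The mitochondrially encoded genes were all rows of the deposited count table whose chromosome was M: 37 of 55357 genes, made up of 13 protein genes, 2 rRNA genes and 22 tRNA genes. Each was followed in 45 libraries, each made from the RNA of a single mouse oocyte. Oocytes had been put into follicles that had lost their own oocyte, and these chimeric follicles were then cultured. YY held young oocytes in young somatic cells (n = 11), AY aged oocytes in young somatic cells (n = 6) and AA aged oocytes in aged somatic cells (n = 12). Oocytes of young mice served as controls, either cultured (in vitro young, n = 8) or not (in vivo young, n = 8). Mouse strain, the ages behind "young" and "aged" and the animal of each oocyte are not given in the labels, so the p-values below measure only the spread between these libraries. The design text names the question: how the somatic cells around an oocyte bear on its quality.

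The mitochondrial genome is a small circle of DNA, inherited through the oocyte and present in it in very many copies. Both of its strands are transcribed into long RNAs, from which tRNAs that lie between the other genes are cut out. The protein genes encode core subunits of respiratory complexes I, III and IV and of the ATP synthase (complex V), and the rRNA genes encode the RNA of the mitochondrial ribosome. All other subunits, the RNA polymerase and the processing enzymes are encoded in the nucleus.

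Neighbouring genes differed in whether they had any counts, so 2 stretches are shown. The first runs from the last bases of mt-Rnr1 (12S rRNA; chromosome M, 70 to 1025), through mt-Tv (valine tRNA, in capitals; 1025 to 1094), to the first bases of mt-Rnr2 (16S rRNA; 1094 to 2676). No base separates the 3 genes. mt-Tv had 0 counts in each of the 45 libraries, and both of its neighbours were counted in all of them. How reads that overlap 2 genes were counted is not known here, so 0 counts of a tRNA gene need not mean that its RNA was absent. The next is mt-Tp (proline tRNA; 15356 to 15423, light strand), shown because it was the single tRNA gene with any count, beside its neighbour mt-Tt (threonine tRNA; 15289 to 15356, heavy strand), which had none. Positions follow the authors' table (mm39), and the sequences are those of the GENCODE M21 transcripts, whose starts were the same for all 37 genes; the last position in the table was 1 base past the GENCODE end for all 37.
mt-Rnr1, mt-Tv and mt-Rnr2: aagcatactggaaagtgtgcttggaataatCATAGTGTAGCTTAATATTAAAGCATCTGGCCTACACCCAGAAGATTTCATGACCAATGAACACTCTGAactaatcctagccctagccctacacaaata
mt-Tp: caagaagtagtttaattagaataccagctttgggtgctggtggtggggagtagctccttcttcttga
mt-Tt: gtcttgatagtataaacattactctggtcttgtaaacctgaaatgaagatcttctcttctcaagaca

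The mitochondrially encoded genes held 85331 counts over all libraries, from 489 to 4990 in a library. Total counts ranged from 418703 to 2201980 per library. The rRNA genes took 42102 of the mitochondrially encoded counts (49.3%), the protein genes 42813 (50.2%) and the tRNA genes 416 (0.488%). Of the 22 tRNA genes, which are 59 to 75 bases long, 21 had no count anywhere. mt-Tp had a count in 43 of 45 libraries, at 0 to 31 counts each.

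Levels between genes were compared per length, as CPM (a gene's counts scaled to a common total) per kilobase of the gene, written CPM per kb, averaged over the 45 libraries. mt-Rnr2 stood highest at 466 CPM per kb, and mt-Rnr1 reached 300 CPM per kb. Between them stood mt-Cytb (cytochrome b, the only subunit of complex III that the mitochondrial genome encodes) at 338 CPM per kb. mt-Co1 (the catalytic subunit of complex IV) followed at 181 CPM per kb. The other complex IV subunits were far below it, with mt-Co3 at 10.9 and mt-Co2 at 9.15 CPM per kb. The complex I subunits ran from mt-Nd1 at 115 and mt-Nd2 at 84.2 CPM per kb, through mt-Nd4 at 35.1, mt-Nd5 at 34.2 and mt-Nd6 at 24.3, down to mt-Nd4l at 2.93 and mt-Nd3 at 0.155. mt-Nd3 had 3 counts in all, in 2 in vitro young libraries. The ATP synthase subunits stood at 30.3 CPM per kb for mt-Atp6 and 7.69 for mt-Atp8.

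Several of the genes with few counts had near-identical copies among nuclear gene models. A block of 7 gene models on chromosome 1, which the table places between 24650616 and 24655279, carried copies of at least 99% identity. The copy of mt-Co2 (Gm28661) was identical over 681 bases, that of mt-Atp6 (Gm10925) over 678, that of mt-Co3 (Gm28437) over 783 and that of mt-Nd4l (Gm10222) over 294. For mt-Nd4 the copy (Gm28439) covered the first 876 of 1378 bases without a mismatch. The copies of mt-Nd3 (Gm28438) and of the 3′ part of mt-Co1 (Gm29216, 483 aligned bases) differed from the mitochondrial gene by 1 base each, T3C in mt-Nd3 and A1066T in mt-Co1, counted from 1 at the 5′ end of the mitochondrial gene with its base first. The lines below set these copies beside the mitochondrial genes, because they show how little sets a read of one apart from a read of the other; the base that differs is in capitals.
mt-Nd3: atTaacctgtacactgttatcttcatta
Gm28438: atCaacctgtacactgttatcttcatta
mt-Co1: ggaAttgttttatccaactcatcccttga
Gm29216: ggaTttgttttatccaactcatcccttga

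Each gene was cut into all windows of 50 bases, and the share of windows found without a mismatch in a nuclear transcript was taken. This share was 100% for mt-Co2, 99.9% for mt-Co3, 99.5% for mt-Atp6, 98.8% for mt-Nd4l and 98.0% for mt-Nd3. These 5 protein genes stood at 0.155 to 30.3 CPM per kb, with a median of 9.15. It was 62.2% for mt-Nd4, 51.1% for mt-Co1, 8.19% for mt-Nd2 and 7.61% for mt-Nd5, and 1.04% for mt-Rnr2. mt-Rnr1, mt-Nd1, mt-Cytb, mt-Nd6 and mt-Atp8 had no such window, and the 4 protein genes among them stood at 7.69 to 338 CPM per kb, with a median of 69.5. mt-Atp8 was the low one of these, and is a short gene of 204 bases that overlaps mt-Atp6 on the same strand. Its last 43 bases matched Gm10925 without a mismatch, a match shorter than a window. Only annotated transcripts were searched, so a copy of its other bases outside them would have been missed. The 7 nuclear copies of at least 99% identity held 1847 counts over all libraries, of which Gm29216 (mt-Co1) had 512 and Gm28439 (mt-Nd4) 89. Copies below that identity had counts too. On chromosome 2, Gm13340 (97.6% identical over the 1545 bases of mt-Co1) had 1050, and Gm13341 (95.9% identical to mt-Co2) had 326. The 5 protein genes copied nearly in full held 1423 counts, and their copies lay on either side of them. Gm28437 had 357 counts beside 338 for mt-Co3, Gm28661 304 beside 251 for mt-Co2 and Gm28438 38 beside 3 for mt-Nd3. Gm10925 had 535 beside 795 for mt-Atp6, and Gm10222 had 12 beside 36 for mt-Nd4l. The sources used here do not say how reads that map to more than 1 place were counted, so levels of the copied genes are uncertain, and the part of the copies in the low levels was not tested. The plot of levels per length sets both measures side by side.

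**Figure D1:**
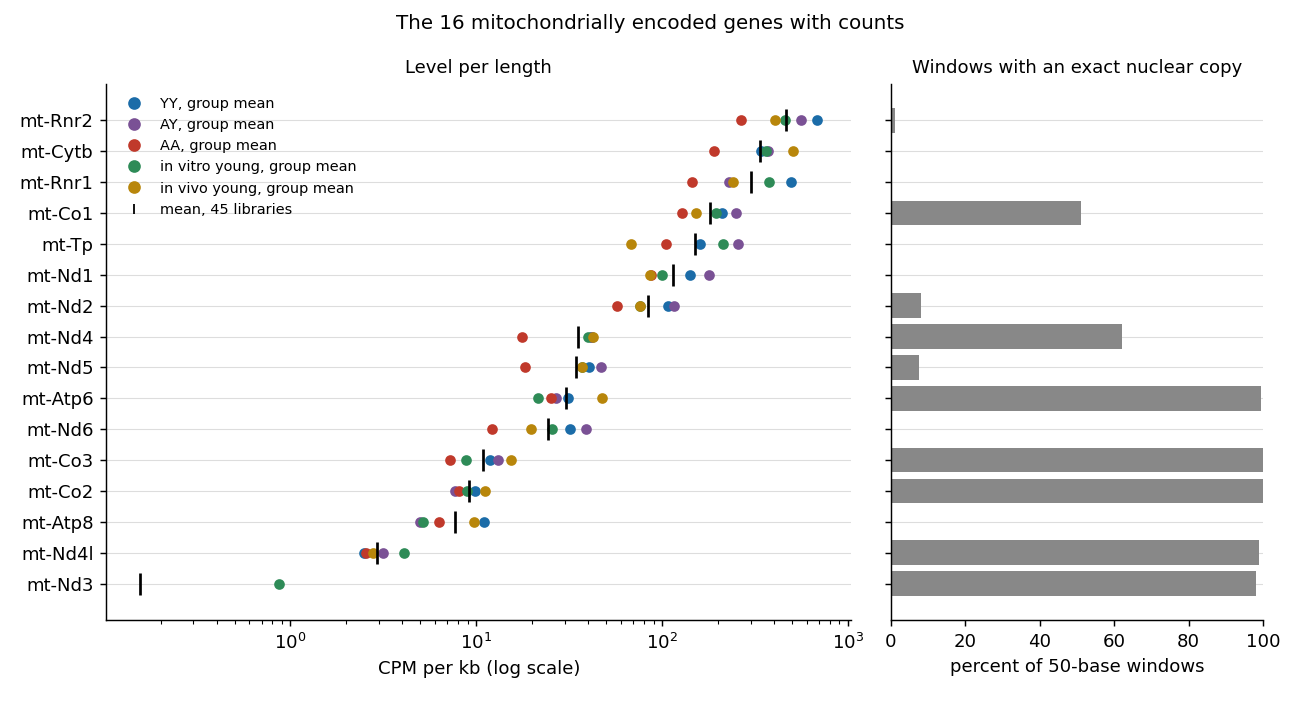
Level of the 16 mitochondrially encoded genes with any count (left, CPM per kb on a log scale; coloured points are group means, black ticks the mean of 45 libraries; groups at 0 are not drawn) and percent of 50-base windows with an exact copy in a nuclear transcript (right). In the mean of 45 libraries, the 5 genes with over 90% of windows copied lie at or below 30.3 CPM per kb. So do mt-Nd6 (24.3) and mt-Atp8 (7.69), which have no such window among the annotated transcripts searched. The last 43 bases of mt-Atp8 have an exact copy, shorter than a window. The group mean of mt-Atp6 reaches 47.5 CPM per kb in in vivo young.

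AA oocytes had the smallest share of counts from the mitochondrial genome. The share ranged from 0.0765% to 0.177% in AA, with a median of 0.118% and a mean of 0.122% ± 0.0341 (SD, n = 12). In AY it ranged from 0.159% to 0.405%, with a median of 0.211% and a mean of 0.242% ± 0.0869 (SD, n = 6), and 5 of the 6 AY libraries lay above every AA library. AY was 0.12 percentage points above AA (exact permutation test, two-sided, adjusted p = 0.000834 over the 10 pairs of groups). Here and below, fewer mitochondrial RNA molecules and more RNA from the nucleus cannot be told apart, since a share has both in it.

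In YY the share ranged from 0.0706% to 0.534%, with a median of 0.232%, the widest range of the 5 groups. Controls ranged from 0.131% to 0.322% (in vitro young, median 0.207%) and from 0.121% to 0.330% (in vivo young, median 0.184%). AA was lower than YY (permutation test, adjusted p = 0.0083), than in vitro young (exact permutation test, adjusted p = 0.000834) and than in vivo young (exact permutation test, adjusted p = 0.0083), with overlapping ranges in each case. The other 6 pairs of groups did not pass, AY against YY among them (exact permutation test, adjusted p = 0.74). Counting error was small beside these spreads: the lowest YY library had a 95% exact binomial (Clopper-Pearson) interval of 0.0649% to 0.0766%, and the highest one of 0.518% to 0.551%. Such intervals cover counting error only, since amplified reads are not independent molecules.

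The YY libraries fell into 2 runs by the library numbers in their labels. The 5 numbered S198 to S202 had shares of 0.106%, 0.196%, 0.0738%, 0.0706% and 0.220%, and the 6 numbered S225 to S231 had 0.232% to 0.534%, with no overlap (exact permutation test, p = 0.00433). All AA libraries carry the numbers S268 to S279 and all AY libraries S234 to S244, so a run and a group cannot be told apart outside YY and the controls. Against S198 to S202 alone, the share in AA was lower by 0.0114 percentage points and did not pass (exact permutation test, adjusted p = 0.724).

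The share was also taken for each type of transcript. The mean in AY was 1.97 times that in AA for the rRNA genes and 2.00 times for the protein genes. The mean in AA was 0.358 times that in YY for the rRNA genes and 0.570 times for the protein genes. The rRNA share of all counts was 0.0424% to 0.0851% in AA (median 0.0520%), 0.0739% to 0.175% in AY (median 0.101%), 0.0486% to 0.274% in YY (median 0.141%), 0.0799% to 0.173% in in vitro young (median 0.103%) and 0.0514% to 0.136% in in vivo young (median 0.0795%). AA was lower than each of the other 4 groups: adjusted p = 0.000539 against YY (permutation test), and by exact permutation tests 0.000539 against AY, 0.000238 against in vitro young and 0.0100 against in vivo young. Of the 12 AA libraries, 11 lay below every in vitro young library. Against S198 to S202 alone, the mean was 0.0559% in AA and 0.0838% in YY (exact permutation test, p = 0.0226, adjusted p = 0.0566).

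The protein share was 0.0332% to 0.109% in AA (median 0.0621%), 0.0839% to 0.228% in AY (median 0.115%) and 0.0135% to 0.266% in YY (median 0.0990%). Its controls ran from 0.0473% to 0.158% (in vitro young) and from 0.0686% to 0.199% (in vivo young). It was higher in AY than in AA (exact permutation test, adjusted p = 0.0070), in in vitro young than in AA (exact permutation test, adjusted p = 0.0419) and in in vivo young than in AA (exact permutation test, adjusted p = 0.0262). The call against in vitro young was lost without 12 of the 20 libraries in turn, and the one against in vivo young without in vivo young replicate 5 (adjusted p = 0.0505). AA against YY did not pass for the protein genes (permutation test, adjusted p = 0.173). In the YY libraries S198 to S202 the mean protein share was 0.0490%, below the 0.0653% of AA, whereas it was 0.169% in S225 to S231.

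**Figure D2:**
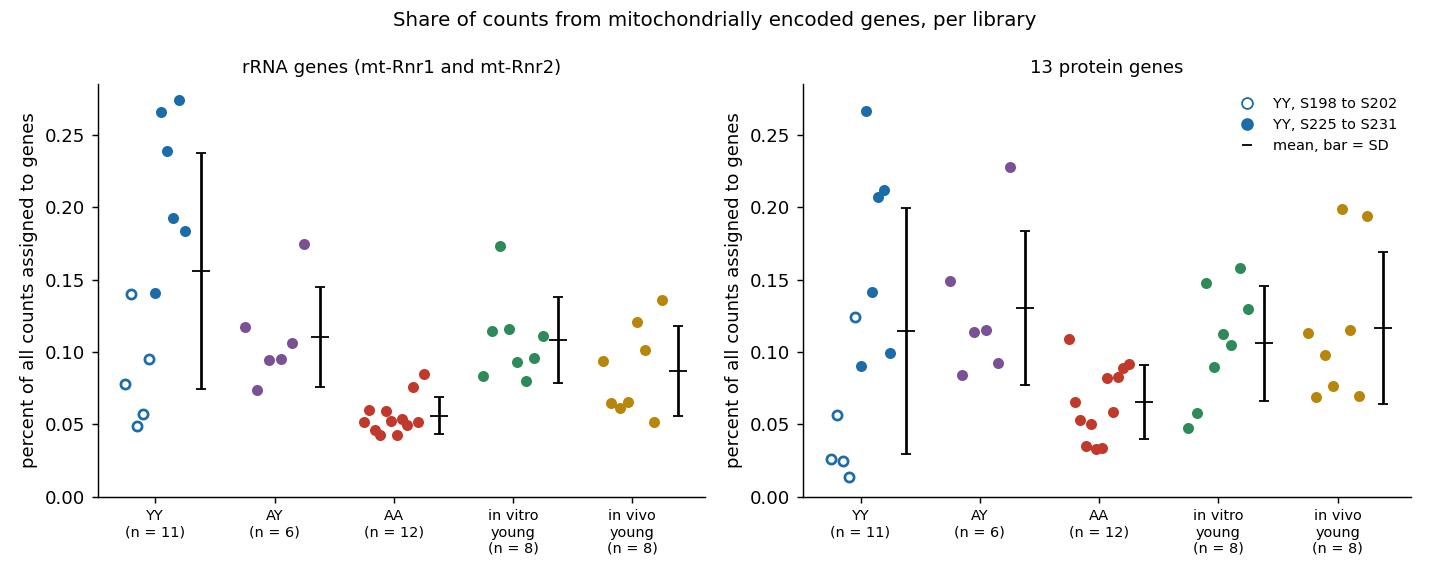
Percent of all counts in the 2 rRNA genes (left) and in the 13 protein genes (right), 1 point per library, by group; open points are the YY libraries S198 to S202, and bars give mean and SD. AA libraries lie between 0.0424% and 0.0851% for rRNA, and YY libraries S225 to S231 lie above every AA library for rRNA.

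The tRNA share was that of mt-Tp alone and rested on 0 to 31 counts per library. Whether counting used strand is not known here, so these counts may hold reads of the other strand. They do not stand for the other tRNAs. Its level was 9.34 to 25.98 CPM in AY (median 17.05), 6.03 to 21.3 in in vitro young (median 14.4), 0 to 21.9 in YY (median 11.7), 0 to 13.9 in AA (median 8.02) and 0.838 to 7.90 in in vivo young (median 4.34). AY and in vivo young did not overlap (exact permutation test, adjusted p = 0.00311). The share was higher in in vitro young than in in vivo young (exact permutation test, adjusted p = 0.00311), with 7 of 8 cultured libraries above every uncultured one. It was lower in AA than in AY (exact permutation test, adjusted p = 0.00359) and than in in vitro young (exact permutation test, adjusted p = 0.00915).

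Within the mitochondrially encoded counts, the rRNA genes took the largest part in YY. They made up 61.5% ± 11.5 of these counts in YY (SD, n = 11), 51.3% ± 10.1 in in vitro young (SD, n = 8), 47.3% ± 8.47 in AA (SD, n = 12), 46.0% ± 3.7 in AY (SD, n = 6) and 43.2% ± 3.9 in in vivo young (SD, n = 8). This measure is a part of the mitochondrially encoded counts, whose number differed between libraries. The highest parts in YY, 80.7% and 73.8%, were those of replicates 4 and 1, with 576 and 489 of these counts. The lowest, 43.3%, was that of replicate 5 with 2217, and replicate 10, with 4990, had 56.2%. A link between the part and the number of counts was not tested. YY was higher than in vivo young (exact permutation test, adjusted p = 0.00741), than AA (permutation test, adjusted p = 0.0149) and than AY (exact permutation test, adjusted p = 0.0269). YY against in vitro young did not pass (exact permutation test, adjusted p = 0.123), and the in vitro young libraries S128 to S149 held 53.7% to 65.7%. Against AA, the part was 67.0% in S198 to S202 (exact permutation test, adjusted p = 0.0194) and 56.97% in S225 to S231 (adjusted p = 0.0934). Without AY replicate 1 or AY replicate 6, AY against YY reached an adjusted p of at most 0.0549 in the exact permutation test.

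mt-Rnr1 stood apart from mt-Rnr2 in this respect, which was seen in the values and has no test here. mt-Rnr1 made up 14.7% to 26.2% of the mitochondrially encoded counts in YY, 8.55% to 16.2% in AA, 7.67% to 12.7% in AY and 8.81% to 12.6% in in vivo young. Every AY and in vivo young library lay below every YY library, and so did 11 of the 12 AA libraries. In vitro young was split by library number: the 4 libraries S128, S129, S148 and S149 held 16.6% to 26.5%, and the 4 libraries S162 to S165 held 9.06% to 13.4%. The count of mt-Rnr2 divided by that of mt-Rnr1 was 1.80 to 3.07 in YY, 3.18 to 4.70 in AY, 2.24 to 3.90 in AA, 2.25 to 3.45 in in vivo young and 1.18 to 3.76 in in vitro young. YY and AY did not overlap in this ratio.

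mt-Cytb differed most between YY and in vivo young in its group mean, and likewise has no test here. It made up 22.4% to 34.1% of the mitochondrially encoded counts in in vivo young and 6.08% to 21.3% in YY, with no overlap. AY lay within the YY range, at 14.8% to 20.2%, and AA ran from 10.8% to 23.1%. In vitro young spanned 8.95% to 29.997%.

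The 7 complex I genes together took 18.5% ± 2.81 of the mitochondrially encoded counts in AY (SD, n = 6), 16.5% ± 3.1 in AA, 14.7% ± 0.995 in in vivo young, 14.3% ± 2.42 in in vitro young and 12.9% ± 4.47 in YY. AY was higher than YY (adjusted p = 0.0496), than in vitro young (adjusted p = 0.0496) and than in vivo young (adjusted p = 0.0466), all by exact permutation tests. These calls were close to the threshold: leaving out libraries in turn ended that against YY in 14 of 17 cases, that against in vitro young in 10 of 14 and that against in vivo young in 5 of 14. mt-Nd6, the one protein gene on the light strand, took 0% to 1.15% of these counts in a library, and no pair of groups passed for it. The end of mt-Nd6 (13552 to 14071) overlaps that of mt-Nd5 (11742 to 13566) on the other strand, and the sources used here do not say whether counting used strand.

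**Figure D3:**
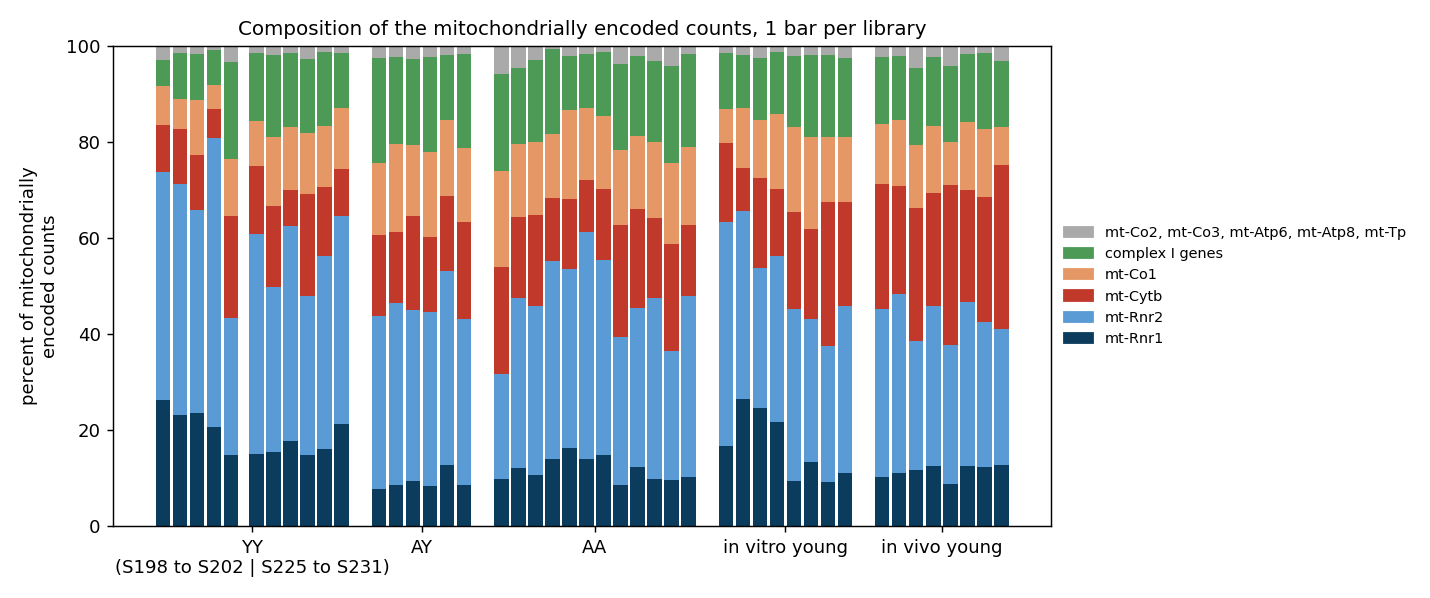
Percent of the mitochondrially encoded counts of each library in mt-Rnr1, mt-Rnr2, mt-Cytb, mt-Co1, the 7 complex I genes and the other genes with counts; 1 bar per library, ordered by library number within a group, with a gap between the 2 runs of YY. The dark mt-Rnr1 segment is 14.7% or more in every YY library and 12.7% or less in every AY and in vivo young library.

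Gene by gene, counts were compared with edgeR's quasi-likelihood test across all genes that passed its filter on low counts, and genes with a Benjamini-Hochberg adjusted p under 0.05 were called. In the fit of YY, AY and AA, 11 of the 37 genes passed the filter: both rRNA genes, mt-Tp, mt-Nd1, mt-Nd2, mt-Nd4, mt-Nd5, mt-Nd6, mt-Cytb, mt-Co1 and mt-Atp6. In the fit of YY and the controls mt-Co3 passed as well. The 26 genes left out of the first fit were 21 tRNA genes with no counts and 5 protein genes: mt-Co3 (0 to 29 counts in any of the 45 libraries), mt-Co2 (0 to 20), mt-Atp8 (0 to 7), mt-Nd4l (0 to 4) and mt-Nd3 (0 to 2).

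In AA against YY, 5 of the 11 genes were called lower and 0 higher. Over all 8533 genes tested, 27.5% were called, 14.7% lower and 12.8% higher, so calls were common in this comparison. The values of all 11 were below 0, from -1.68 to -0.33 on the log2 scale, with a median of -0.86 beside -0.01 over all genes.

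mt-Rnr1 had 107 to 180 CPM in AA (median 136) and 146 to 828 in YY (median 453), and 9 of the 11 YY libraries lay above every AA library. It fell by 1.68 ± 0.24 on the log2 scale (SE; edgeR, adjusted p = 1.15e-05). mt-Rnr2 had 312 to 671 CPM in AA (median 393) and 312 to 1957 in YY (median 1064), and fell by 1.27 ± 0.25 (SE; edgeR, adjusted p = 0.000442). The 2 rRNAs are the RNA cores of the small and the large subunit of the mitochondrial ribosome.

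The complex I genes mt-Nd4, mt-Nd5 and mt-Nd6 encode membrane subunits of the proton-pumping arm. mt-Nd6 had 2.42 to 11.9 CPM in AA (median 4.93) and 0 to 45.9 in YY (median 13.8); 6 YY libraries lay above all AA libraries and 3 below all of them. Its value fell by 1.37 ± 0.49 (SE; edgeR, adjusted p = 0.0367). mt-Nd4 fell by 1.21 ± 0.39 (adjusted p = 0.0216) and mt-Nd5 by 1.10 ± 0.37 (adjusted p = 0.0288) in the same edgeR fit. The other 2 complex I genes tested were not called, mt-Nd1 at -0.65 ± 0.43 and mt-Nd2 at -0.86 ± 0.38 (SE). Nor were the genes of the other complexes, with mt-Cytb at -0.76 ± 0.38, mt-Co1 at -0.63 ± 0.35 and mt-Atp6 at -0.33 ± 0.51 (SE).

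mt-Rnr1 kept its call in all 34 alternative fits of AA against YY, and its log2 value ranged from -2.09 to -0.92 in them. The YY libraries S198 to S202 had 276.8, 453, 173, 146 and 324 CPM of mt-Rnr1, so 3 of the 5 were above every AA library. Against them alone its log2 value in AA was -0.92 ± 0.22 (SE; edgeR, adjusted p = 0.0154) and was the only gene of the 11 called, where 5.43% of all genes tested were called. Against S225 to S231, at 347 to 828 CPM, the value was -2.09 ± 0.16 (SE; edgeR, adjusted p = 4.4e-10), with 10 of the 11 called, all but mt-Atp6, where 38.1% of all genes tested were called. With the run of library numbers as a random block in limma voom, it was -1.47 ± 0.38 (SE; adjusted p = 0.0266), again the only call among the 11, where 4.86% of all genes were called.

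The other calls changed with the choice of YY libraries, and so did the share of all genes called. Against S198 to S202 the median of the 11 turned to 0.25, mt-Rnr2 was at -0.36 ± 0.23 and mt-Nd6 at 0.28 ± 0.54 (SE). Without YY replicate 7, or without YY replicate 10, both of the run S225 to S231, only the 2 rRNA genes of the 11 were called. The share of all genes called in those fits is not given here. In in vitro young, mt-Rnr1 had 217 to 793 CPM in S128 to S149 and 196 to 268.05 in S162 to S165. These ranges overlapped and were not compared in a test. The part of such runs in the difference between AA and YY was not tested.

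**Figure D4:**
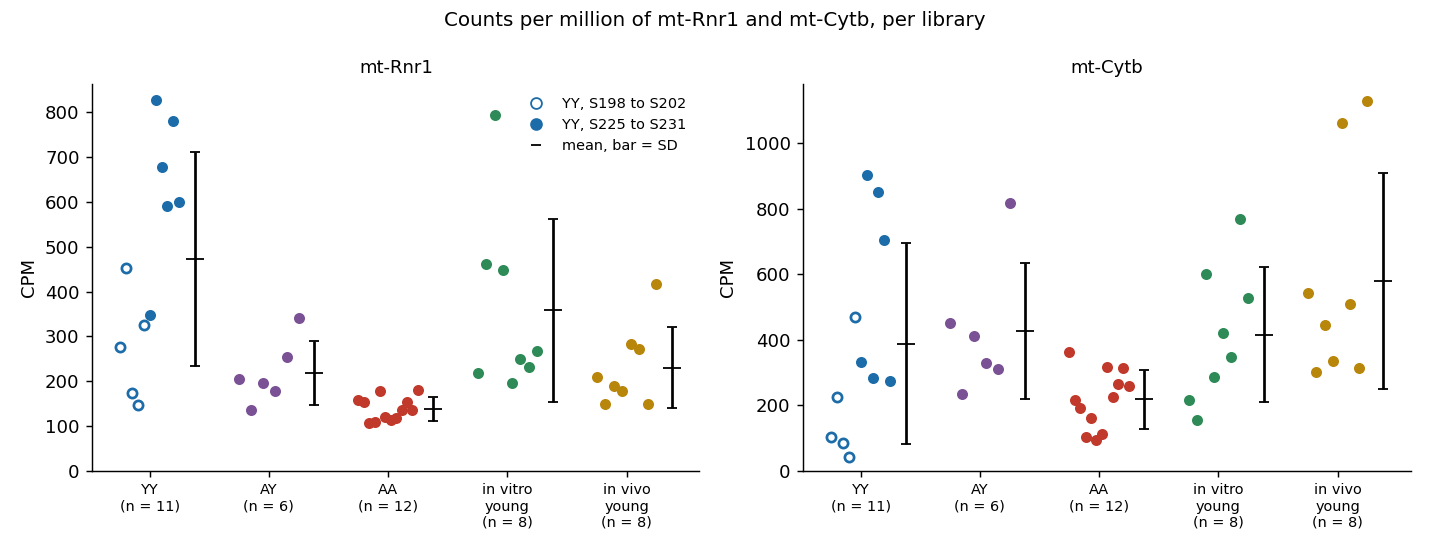
CPM of mt-Rnr1 (left) and mt-Cytb (right) in each library, by group, with the YY libraries S198 to S202 as open points and bars for mean and SD. AA libraries lie between 107 and 180 CPM of mt-Rnr1, and in mt-Cytb 2 YY libraries lie below every AA library.

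In AY against AA, 1 of the 11 genes was called, higher in AY, where 6.59% of all genes tested were called, 3.52% higher and 3.07% lower. mt-Rnr2 had 604 to 1405 CPM in AY (median 789) and 312 to 671 in AA, and 5 of the 6 AY libraries lay above every AA library. It rose by 1.01 ± 0.29 on the log2 scale (SE; edgeR, adjusted p = 0.0348). The values of all 11 genes were above 0, from 0.13 to 1.65, with a median of 1.01 beside 0.00 over all genes, and 9 had an unadjusted p under 0.05 in edgeR. mt-Rnr1 was at 0.60 ± 0.28 (SE; adjusted p = 0.206), mt-Nd6 at 1.65 ± 0.55 (adjusted p = 0.0655) and mt-Tp at 1.24 ± 0.44 (adjusted p = 0.0767).
The call of mt-Rnr2 was lost without AA replicate 4, AA replicate 7, AY replicate 1 or AY replicate 6. The share of all genes called without each of these libraries is not given here. With the runs as a random block no gene of the 11 was called, where 0.117% of all genes were. AY against AA and AA against YY share the AA libraries.

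**Figure D5:**
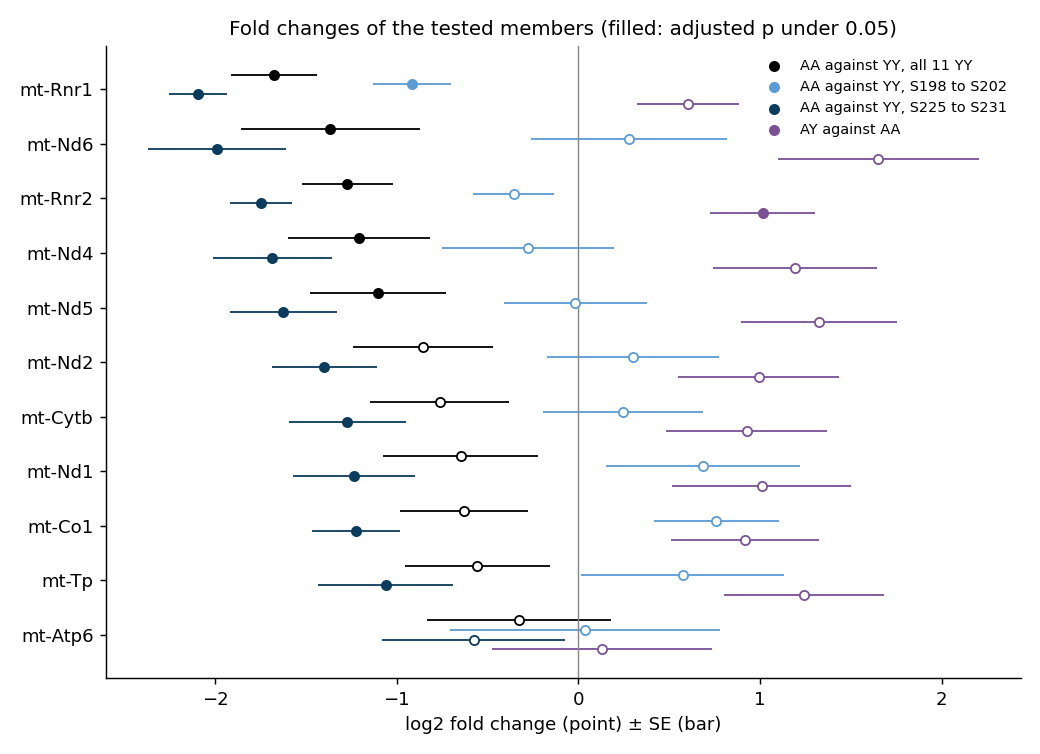
Log2 fold changes (points) with SE (bars) of the 11 tested genes in AA against all 11 YY libraries, against the YY libraries S198 to S202, against S225 to S231, and in AY against AA; filled points have an adjusted p under 0.05. mt-Rnr1 is the only gene filled in all 3 forms of AA against YY.

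In AY against YY, 0 of the 11 genes were called by edgeR and 1 had an unadjusted p under 0.05, where 1.62% of all genes tested were called, 0.715% higher and 0.902% lower. That gene was mt-Rnr1, with 135 to 342 CPM in AY (median 200.7) and 7 of 11 YY libraries above every AY library, at -1.07 ± 0.29 (SE; edgeR, adjusted p = 0.0587). DESeq2 called it and no other of the 11, in a fit whose share of all genes called is not given here. The remaining 10 lay between -0.26 and 0.68. mt-Rnr2 was at -0.26 ± 0.30 (SE).
Against S198 to S202 alone, mt-Co1 (1.68 ± 0.38, edgeR adjusted p = 0.0293) and mt-Nd6 (1.94 ± 0.54, adjusted p = 0.0493) were called higher in AY, where 1.61% of all genes were called. Against S225 to S231 alone, mt-Rnr1 (-1.48 ± 0.19, edgeR adjusted p = 6.49e-05) and mt-Rnr2 (-0.73 ± 0.20, adjusted p = 0.0261) were called lower, where 10.3% of all genes were called.

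In YY against in vitro young, edgeR called 0 of the 12 genes tested and none had an unadjusted p under 0.05, where 2.48% of all genes tested were called, 0.777% higher and 1.7% lower. Their values ran from -0.46 to 0.53, with a median of 0.33. Against in vitro young, the YY libraries S225 to S231 alone had mt-Rnr2 (1.01 ± 0.19, edgeR adjusted p = 0.00322) and mt-Nd1 (1.06 ± 0.30, adjusted p = 0.0333) called higher, where 9% of all genes were called, whereas S198 to S202 alone had none.
In in vitro young against in vivo young, edgeR called 0 of the 12 genes and 1 had an unadjusted p under 0.05, where 0.137% of all genes tested were called, 0.126% higher and 0.0114% lower. It was mt-Tp at 1.62 ± 0.43 (SE, edgeR adjusted p = 0.115). DESeq2 called it, in a fit whose share of all genes called is not given here. mt-Atp6 was at -1.07 ± 0.55 and mt-Cytb at -0.50 ± 0.49 (SE), both lower with culture and neither called.

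The nuclear genes that serve the mitochondrial genome were taken from lists for its transcription and replication and for the processing, stability and decay of its RNA. In AA against YY, 9 of 37 tested genes were called higher and 1 lower, with a median log2 value of 0.23 beside -0.01 over all genes. The share called in either direction, 27% of these genes, was close to the 27.5% over all genes tested. The split by direction was not alike: 9 of the 10 called genes were higher, while 12.8% of all genes were called higher and 14.7% lower. Ptcd3, a protein of the small mitochondrial ribosomal subunit, had 37.4 to 66.4 CPM in AA (median 49.4) and 6.84 to 49.0 in YY (median 23.8). It rose by 0.98 ± 0.19 (SE; edgeR, adjusted p = 0.000207). Fastkd2 (0.87 ± 0.18) and Fastkd3 (0.58 ± 0.15), of a family of mitochondrial RNA-binding proteins, rose too. So did Nsun4 (0.40 ± 0.11), a methyltransferase of the 12S rRNA, Mgme1 (0.64 ± 0.19), an exonuclease for mitochondrial DNA, and Mtpap (0.34 ± 0.10), the mitochondrial poly(A) polymerase. The 4 other called genes were Polrmt (0.54 ± 0.20), the mitochondrial RNA polymerase, Dna2 (0.51 ± 0.20), a nuclease and helicase, and Lrpprc (0.59 ± 0.18), which stabilises mitochondrial mRNAs, all of them higher, and Supv3l1 (-0.54 ± 0.20), the helicase of the RNA-degrading complex, which was lower; these 4 fall outside the 6 with the smallest p and were named after their values were seen. With YY limited to S198 to S202, 0 of 38 tested genes were called, and with S225 to S231, 11 of 35 (31.4%), beside 5.43% and 38.1% of all genes.

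In AY against AA, 1 of these 37 genes was called higher and 1 lower (5.41%), close to the 6.59% over all genes tested. Elac2, which trims the 3′ ends of tRNA precursors, had 34.3 to 72.6 CPM in AY (median 41.7) and 20.6 to 39.0 in AA (median 27.1), and rose by 0.66 ± 0.20 (SE; edgeR, adjusted p = 0.0368). Fastkd1 had 23.9 to 53.4 CPM in AY (median 34.6) and 33.8 to 72.6 in AA (median 59.7), and fell by 0.71 ± 0.19 (SE; edgeR, adjusted p = 0.0203). AY against YY had 0 calls in edgeR, with 5 genes at an unadjusted p under 0.05. Lrpprc was the one gene called in YY against in vitro young (-0.62 ± 0.14), and Trmt10c, a subunit of mitochondrial RNase P, the one called in in vitro young against in vivo young (0.93 ± 0.19), both named after their values were seen.

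The nuclear subunits of the complexes that hold the encoded proteins were called in both directions. In AA against YY, 8 of 70 tested subunits were called higher and 2 lower, with a median of -0.02. These were 14.3% of the subunits, where 27.5% of all genes tested were called, 12.8% higher and 14.7% lower. Atp5g1, a nuclear gene for the membrane ring of the ATP synthase, had 15.2 to 34.7 CPM in AA (median 21.8) and 19.5 to 84.5 in YY (median 73.5), and fell by 1.35 ± 0.23 (SE; edgeR, adjusted p = 2.55e-05). Ndufv1, in the NADH-oxidising part of complex I, rose by 0.52 ± 0.11 (edgeR, adjusted p = 0.000548). Uqcrc2, a core protein of complex III, rose by 0.48 ± 0.10 (edgeR, adjusted p = 0.000584). By complex, 4 of 35 subunits of complex I were called higher and 0 lower, 1 of 9 of complex III in each direction, 0 of 11 of complex IV, and 3 higher and 1 lower of 15 of complex V. Against S198 to S202 alone, 3 subunits were called higher and 1 lower; against S225 to S231 alone, 9 were higher and 12 lower, where 5.43% and 38.1% of all genes were called. In AY against AA, 1 of 70 tested subunits was called (1.43%), where 6.59% of all genes tested were called. It was Ndufa9 (complex I), which fell by 0.44 ± 0.11 (SE; edgeR, adjusted p = 0.0102).

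All 8 oocyte markers had counts in every group, with mean sums of 15296 CPM in YY, 15395 in AA, 17973 in AY, 20012 in in vitro young and 20350 in in vivo young. Of these 8, 3 were called lower in YY than in in vitro young, where 1.7% of all genes were called lower. In AA against YY, 2 were called higher and 1 lower, where 12.8% and 14.7% of all genes were. In AY against YY, 1 was called in each direction, where 0.715% of all genes were called higher and 0.902% lower. Near-equal sums thus held changes in both directions. Granulosa markers summed to a mean of 711 CPM in YY, 1174 in AY, 977 in AA, 697 in in vitro young and 662 in in vivo young, of which Serpine2 alone had 638, 1060, 850, 611 and 593 CPM. Without Serpine2 their sums ranged from 56.0 to 101 CPM in YY, 68.9 to 200 in AY and 71.3 to 257 in AA; 2 of the 10 granulosa markers were at 0 in YY and 1 each in AY and AA. Of the 5 that edgeR tested, 3 were called higher in AA than in YY, where 12.8% of all genes were, and 2 higher in AY than in YY, where 0.715% were. Theca and stroma markers reached at most 9.74 CPM and immune markers at most 9.55 CPM in a library. Endothelium and blood markers summed to 16.8 to 126 CPM, with means of 59.8 in YY, 51.9 in AY and 73.5 in AA, nearly all from Pecam1 (57.6, 47.1 and 70.3 CPM). The part of these markers in the group differences was not tested.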

How the data were processed

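The labels do not state how the cDNA was primed. Each library was made from a single oocyte, per the labels' protocols. The deposited table holds whole-number read counts per gene, made by the authors with STAR 2.7.8a, HTSeq 0.11.0 and mm39, per the submitters' processing notes. All 45 columns were used as deposited.

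Shares are percentages of a library's total counts; CPM are counts scaled to 1e6 of that total. Shares were compared for 10 pairs of groups with two-sided permutation tests (exact, or 100000 resamples with at least 10 libraries in both groups), adjusted by Benjamini-Hochberg. Genes were tested with edgeR 4.0.16 (TMM, robust quasi-likelihood, filterByExpr with a minimum count of 10 and a minimum total of 15) in a fit of the 29 YY, AY and AA libraries and one of the 27 YY and control libraries. DESeq2 1.42.0 and limma 3.58.1 were alternatives. The edgeR step was tested on simulated data. Copies were searched with blastn 2.17.0 among GENCODE M21 transcripts (GRCm38), not in a genome, so unannotated copies were not searched. Nuclear genes named are, per comparison among YY, AY and AA, up to 6 called genes of the mitochondrial genome's lists and up to 3 called subunits, by smallest p; others are marked as named after their values were seen. Members and lists were chosen with earlier results of these data known.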

Additional observations from a re-analysis of the deposited data

Results flagged for a closer look

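In groups of 4 to 10 libraries, 57 sets of values were searched for a highest or lowest library with a wide gap to the rest, and 6 were found; chance gives about 1 in 20. In AY, replicate 5 had 53.2% of its mitochondrially encoded counts in the rRNA genes, against 43.2% to 46.5% in the others. AY replicate 6 had 619 CPM of mt-Co1, where the others had 288 to 407, and 818 CPM of mt-Cytb, where they had 235 to 451. In vitro young replicate 3 stood out in 3 measures: an rRNA share of 0.173% of all counts (others 0.0799% to 0.116%), 793 CPM of mt-Rnr1 (others 196 to 462) and 16.7 CPM of mt-Co3 (others 3.12 to 8.51).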

How the results depend on the processing

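Of 832 alternative values for shares, 796 kept direction and side of the threshold or changed sign without passing in either form. So did 579 of 624 for composition and 1538 of 1613 for log2 values. Those that changed sign in this way numbered 41, 24 and 95, and are included. Of 156 alternative numbers of genes called, 116 stayed equal or near to the main number. Several alternatives were chosen after seeing the data: those that split YY by run for the share by type, the composition and the nuclear lists.

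The share in AA minus that in YY was -0.0493 with protein genes only, -0.0497 without the rRNA genes and -0.0114 with S198 to S202. AA minus in vitro young in protein share was -0.0379 with TMM-scaled totals. With at least 500 mitochondrially encoded counts, complex I was 4.88 points higher in AY than YY and 4.21 than in vitro young, and neither passed. With S198 to S202 the differences were -0.0279 (rRNA share, AA minus YY), 6.07 (complex I, AA minus YY), 0.0012 (tRNA share, AY minus YY), -21.0 (rRNA part, AY minus YY), 8.02 (complex I, AY minus YY) and -0.000923 (tRNA share, YY minus in vitro young). With S225 to S231 the share differed by -0.145 (AY minus YY), 0.171 (YY minus in vitro young) and 0.183 (YY minus in vivo young). In that run AA minus YY was -0.104 (protein share), -0.00083 (tRNA share) and -9.68 (rRNA part). AY minus YY was -0.106 (rRNA share), -10.9 (rRNA part) and 3.60 (complex I). YY minus controls was 0.108 (rRNA share, in vitro), 0.129 (rRNA share, in vivo) and 0.00108 (tRNA share, in vivo).

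Whether replicate numbers pair the libraries could not be settled, since differently numbered libraries were not compared in the same way. Same-numbered deviations correlated above 0.1 in 2 of 11 pairs of AA and YY and 0 of 6 of AY and AA. They did so in 2 of 6 of AY and YY and 0 of 8 of YY and in vitro young. Of the controls 4 of 8 did, at up to 0.242. With a replicate block the share was 0.132 (AY minus AA) and -0.106 (AA minus in vitro young), neither passing, and 3 mitochondrially encoded genes were called in AA against YY and 5 in AY against AA.

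Of these genes, AA against YY (5 called) gave 2 with limma voom, 3 with no filter, 1 with the run block, 1 with S198 to S202, where mt-Nd6 turned to 0.28, and 10 with S225 to S231. AY against AA (1 called) gave 2 with DESeq2, 4 with voom, 2 with a minimum count of 50, 0 with the run block, 6 with only those 2 groups and 3 with all 45 libraries. AY against YY (0 called) gave 1 with DESeq2, 1 with a minimum count of 50 and 2 with either run. YY against in vitro young (0) gave 2 with S225 to S231, and in vitro against in vivo young (0) gave 1 with DESeq2 and 1 with no filter. The number of all genes called changed with the setting too, so these counts alone are no result about these genes. In AA against YY it was 2348 of 8533 in the main fit. It was 451 of 8311 with S198 to S202 and 3151 of 8260 with S225 to S231. In the same order, AY against YY had 138 of 8533, 134 of 8311 and 847 of 8260. YY against in vitro young had 217 of 8749, 99 of 8996 and 803 of 8925. For other settings and libraries left out it is not given here. Nuclear genes of the mitochondrial genome gave 0 in AA against YY and 0 in YY against in vitro young with S198 to S202; with S225 to S231 they gave 3 in AY against YY and 3 in YY against in vitro young. Nuclear subunits gave 4 and 21 in AA against YY with the earlier and later run, 1 and 4 in AY against YY, and 1 in YY against in vitro young with the later run.

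Leaving out each library in turn gave these ranges. The rRNA part ran from 5.98 to 10.0 (in vitro minus in vivo young) and -17.3 to -13.6 (AY minus YY). Protein share ran from -0.0489 to -0.0331 (AA minus in vitro young) and -0.0582 to -0.0396 (AA minus in vivo young). Complex I ran from 3.56 to 5.22 (AY minus in vitro young), 3.16 to 4.82 (AY minus in vivo young), 2.93 to 4.39 (AA minus YY) and 4.88 to 6.62 (AY minus YY). The mt-Nd6 part ran from 0.282 to 0.396 (AY minus in vivo young). YY minus in vivo young ran from 0.0572 to 0.0798 (rRNA share) and 0.000500 to 0.000720 (tRNA share). Members called were 2 to 6 (AA against YY), 0 to 1 (AY against AA) and 0 to 1 (AY against YY). The cause of these changes was not tested. Few counts stood behind some genes: mt-Atp8, mt-Nd4l and mt-Nd3 had 61, 36 and 3 counts in all.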
